A study of Mus musculus with 2 samples.

Results

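The 42 genes described here are the transcription factors, stress effectors, amino acid enzymes, amino acid transporters and cytosolic tRNA synthetases commonly listed with the transcription factor ATF4. All probe sets whose platform annotation gave 1 of these symbols alone were taken. This found 41 of the 42 genes, with 90 probe sets, of 18193 named genes with 34945 probe sets. No expression value of Pycr1 is analysed here. Gene expression was measured in mouse E14 embryonic stem cells, an established cell line, on 2 Affymetrix 3' expression arrays. One array held cells given a lentiviral shRNA against Mll2 and the other held cells given a control shRNA by the same route. Lentiviral infection took 24 h and puromycin selection 5 days, so both groups carried a lentivirus and both were exposed to puromycin. Each group was a single array, so the ratios have no replicate check and carry no p-value.

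ATF4 is the main effector of the integrated stress response. Amino acid shortage, unfolded protein in the endoplasmic reticulum, haem shortage or viral RNA activates kinases that phosphorylate the translation factor eIF2, which lowers general translation while the Atf4 mRNA is translated more. ATF4 then binds, as a dimer with C/EBP proteins and other basic leucine zipper partners, to C/EBP-ATF response elements in genes of amino acid synthesis, amino acid uptake and tRNA charging.

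The values are log2 signals from MAS5, Affymetrix's summary of the probes of a probe set, and a ratio is the Mll2 shRNA value minus the control shRNA value. Values below a floor of 6.02 (a signal of 64.7, the median of both arrays pooled) were raised to it, genes with a probe set over the floor on either array were called measured, and the brightest probe set by mean value stood for its gene. The spread at a gene's level is the median absolute deviation, times 1.4826, of ratios among the 500 genes closest to it in mean signal. Real differences widen this spread along with noise, and variation between cultures is not in it. Kmt2d, 1 of the 2 genes once called Mll2, had a signal of 335 on the Mll2 shRNA array and 736 on the control array, a log2 ratio of -1.14. This rests on 1 probe set, as another Kmt2d probe set was below the floor on both arrays, with signals of 27.4 and 42.3. Kmt2b, the other gene once called Mll2, had 852 and 901. All 10 embryonic stem cell markers were above the floor on both arrays, with summed signals of 89487 (Mll2 shRNA) and 92911 (control). Their ratios ran from -0.65 for Fgf4 to 0.59 for Klf4, with 4 above and 5 below the spread at their level, and bright genes such as Dppa5a weigh most in the sums. Below the floor on both arrays were 5 of 9 fibroblast markers and 3 of 5 macrophage markers. The fibroblast sums were 851 and 767 and the macrophage sums 345 and 344, and their part in the ratios was not tested. In such bulk samples, fewer cells that express a gene and less RNA per cell cannot be told apart.

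Of the 41 genes, 40 were measured, and the probe set used exceeded the floor on both arrays in all 40. Of these 40, 6 were at least 2-fold higher on the Mll2 shRNA array (Atf5, Chac1, Trib3, Vldlr, Nupr1 and Aldh18a1) and 1, Cth, was at least 2-fold lower. The count of 6 was 3 with a floor at the 70th percentile or a pseudocount equal to the floor. The share of all measured genes at least 2-fold higher was then 0.606% and 0.737%. The count was 4 with probe sets averaged (1.18% of all), 5 after loess or quantile normalization (1.28% and 1.23%) and 7 with spike-in scaling (2.18%). Without probe sets whose suffixes mark probes able to detect several transcripts it was 1, Chac1, of 31 measured members (1.41% of all). The other 5 were read by such probe sets. With the floor and probe set choice described above, the shares of all 11805 measured genes past 2-fold were 1.47% for higher and 0.983% for lower. At 1.5-fold, 11 members were higher and 2 lower, against 7.4% and 4.68% of all measured genes. The median log2 ratio was 0.25 over the 40 members and 0.03 over all measured genes. In 30 members (75%) the ratio was above 0, which was so in 53.5% of all measured genes. The ratio exceeded the spread at its level in 23 members and lay below minus the spread in 3, Cth, Sesn2 and Slc7a3, against 19.3% and 14.3% of all measured genes. Lars and Shmt2 exceeded it only just. The members were chosen with earlier results of these arrays known, so the counts describe these 2 arrays.

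**Figure D1:**
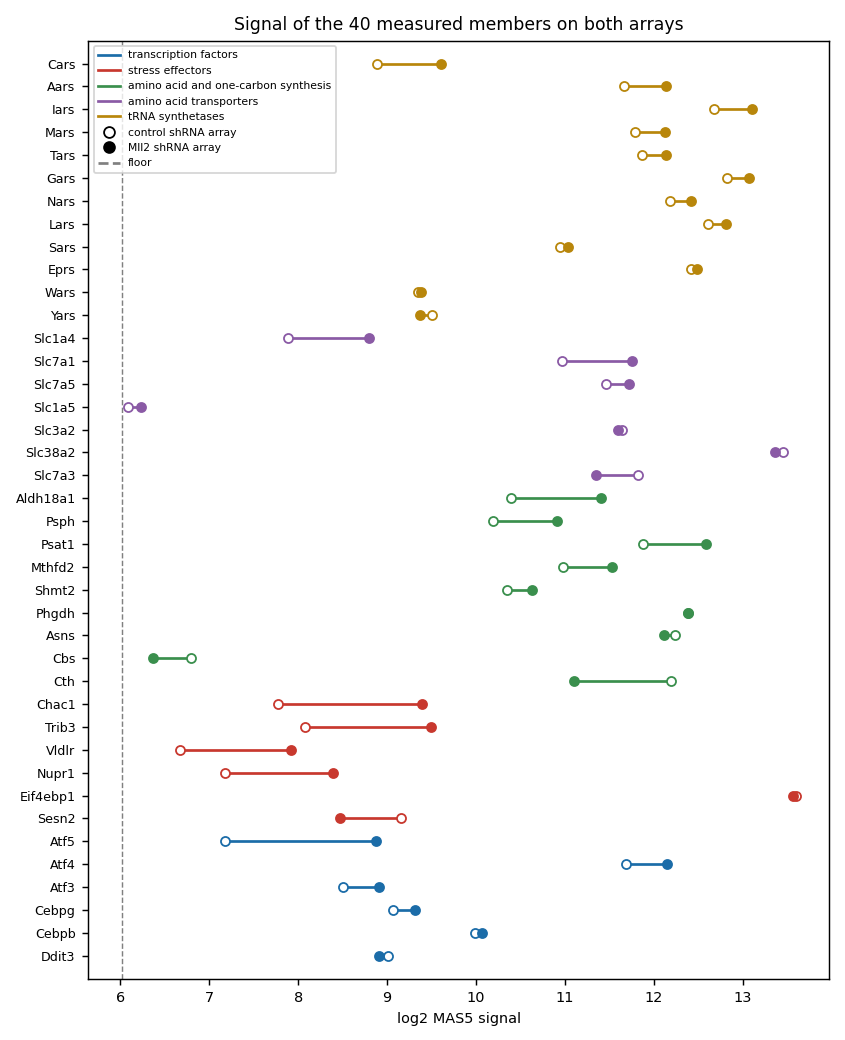
Log2 MAS5 signal (x axis) of the 40 measured members, 1 probe set per gene, on the control shRNA array (open circles) and the Mll2 shRNA array (filled circles), coloured by role, with the floor as a dashed line. Filled circles lie to the right in 30 of the 40 genes, and the longest bar to the right is that of Atf5, from 7.17 to 8.87.

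The transcription factors differed in how far apart the 2 arrays were. Atf5, a close relative of ATF4 in the basic leucine zipper family, had a signal of 469 on the Mll2 shRNA array and 144 on the control array in its single probe set. This is 3.25-fold higher, a log2 ratio of 1.70 against a spread of 0.37 at its level, and 1 of its 500 neighbours in level had a higher ratio. Atf4 itself had signals of 4521 and 3292 in the probe set used, a log2 ratio of 0.46 with a spread of 0.22. A second probe set of nearly the same mean signal gave 0.94, so that the mean over both was 0.70 ± 0.34 (SD over 2 probe sets). Its suffix marks probes able to detect several transcripts, and without suffixed probe sets the ratio of Atf4 was 0.46. The third Atf4 probe set was below the floor on both arrays. ATF4 is regulated mainly through its translation, which these arrays do not measure.

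Atf3, a stress-induced repressor and activator of the same family, had signals of 480 and 362, a ratio of 0.41 with a spread of 0.34. The remaining factors lay within the spread at their level. Ddit3, which encodes CHOP, the factor that drives the late and pro-apoptotic part of the response, had signals of 481 and 515, a ratio of -0.10, and its second probe set gave 0.12. Cebpb and Cebpg, dimerisation partners of ATF4, were at 0.08 and 0.25 with second probe sets at 0.22 and 0.31. A further Cebpg probe set exceeded the floor on the control array alone, and its ratio of -0.31 is therefore a lower bound in size. Of the 6 factors, 5 were above 0, with a median of 0.33.

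The stress effectors separated into 4 genes that were at least 2-fold higher and 2 that were below 0. Chac1, an enzyme that degrades glutathione, had a signal of 670 on the Mll2 shRNA array against 219 on the control array, 3.06-fold. Trib3, a pseudokinase that feeds back on ATF4 and CHOP, had signals of 718 and 269, 2.67-fold. No gene among their 500 neighbours in level had a higher ratio than Chac1 or Trib3. The second Trib3 probe set gave a log2 ratio of 0.998, and the mean over both was 1.21 ± 0.30 (SD over 2 probe sets).

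Nupr1, a small chromatin-associated stress protein, had signals of 335 and 145, 2.32-fold, and its second probe set gave 0.74. Vldlr, a receptor for apolipoprotein E-containing lipoproteins and Reelin, had signals of 242 and 102 in 1 probe set, 2.37-fold. Its other 5 probe sets were below the floor on both arrays and gave no ratio, and the unfloored differences in them ran in both directions, from -1.37 to 3.57. 

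Sesn2, a leucine sensor and inhibitor of mTORC1, had the lowest ratio of the 6 effectors, with signals of 354 and 569 and a ratio of -0.69. Its second probe set gave 0.16, so that the probe sets differed in direction. Eif4ebp1, the translation repressor 4E-BP1, had signals of 12051 and 12353, a ratio of -0.04, and 0.02 and 0.65 in its other probe sets. The median of the group was 1.23, and it became 0.02 over the 3 genes that were left when probe sets with suffixes were set aside.

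The upstream sequences of the 3 effectors with an ATF4-type element before the gene start are shown here because these genes were at least 2-fold apart. Each line gives the 250 bases before the start, 5′ to 3′ on the gene's strand, from RefSeq (assembly GRCm38.p6). Capitals mark the letters of the C/EBP-ATF response element, which read TGATGCAA on the opposite strand in all 3. Vldlr has 2 annotated starts, and the sequence belongs to the one whose window holds the element.
Chac1, chr2:119350992-119351241, plus strand: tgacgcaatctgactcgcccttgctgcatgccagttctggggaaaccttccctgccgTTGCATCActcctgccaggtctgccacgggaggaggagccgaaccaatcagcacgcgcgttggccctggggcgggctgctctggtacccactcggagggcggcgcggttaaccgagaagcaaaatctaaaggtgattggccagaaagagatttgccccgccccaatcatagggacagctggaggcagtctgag
Nupr1, chr7:126625471-126625720, minus strand: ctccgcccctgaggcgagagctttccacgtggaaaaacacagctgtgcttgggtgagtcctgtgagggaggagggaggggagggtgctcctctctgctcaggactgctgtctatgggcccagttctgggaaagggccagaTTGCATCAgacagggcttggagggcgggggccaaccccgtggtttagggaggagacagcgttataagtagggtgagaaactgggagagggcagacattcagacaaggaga
Vldlr, chr19:27216770-27217019, plus strand: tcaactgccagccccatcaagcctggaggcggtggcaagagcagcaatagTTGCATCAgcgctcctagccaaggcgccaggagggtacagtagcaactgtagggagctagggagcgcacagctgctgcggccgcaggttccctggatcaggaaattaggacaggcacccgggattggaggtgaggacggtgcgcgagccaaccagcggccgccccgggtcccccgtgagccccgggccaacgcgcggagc
The element began 193 bases before the start in Chac1, 110 in Nupr1 and 200 in Vldlr.

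**Figure D2:**
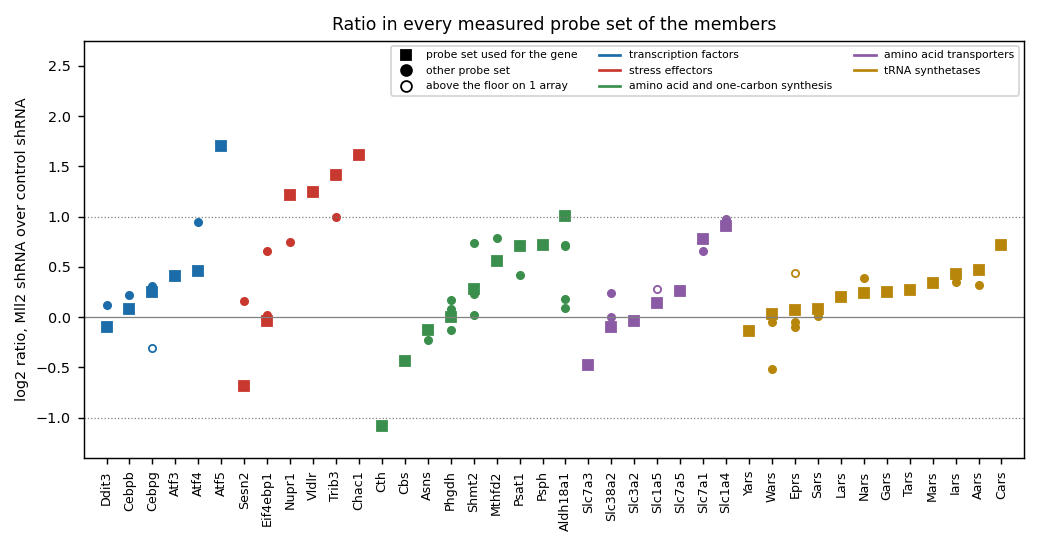
Log2 ratio (y axis) in each measured probe set of the members (x axis), coloured by role. Squares are the probe sets used for the genes, filled circles the others, and open circles those above the floor on 1 array only. The SD between probe sets that exceed the floor on each array is largest for Sesn2 (0.60), whose probe sets lie at -0.69 and 0.16.

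Among the enzymes of amino acid and one-carbon synthesis, the largest differences ran in opposite directions. Aldh18a1, which makes the proline and ornithine precursor pyrroline-5-carboxylate from glutamate, had signals of 2701 on the Mll2 shRNA array and 1345 on the control array, 2.01-fold. Its 5 probe sets were all above 0 but ran from 0.09 to 1.01, with a mean of 0.54 ± 0.39 (SD). Cth, cystathionine gamma-lyase, which releases cysteine in the last step of transsulfuration, had signals of 2200 and 4663 in its single probe set, 2.12-fold lower. Only 1 of the 500 neighbours in level lay below Cth. Cbs, which catalyses the step before Cth, had signals of 82.2 and 111, close to the floor, and a ratio of -0.44 within a spread of 0.51.

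The 3 serine synthesis enzymes differed from each other. Psat1, the aminotransferase of the pathway, had signals of 6136 and 3749, a ratio of 0.71 with 0.42 in its second probe set. Psph, the phosphatase that completes serine synthesis, had 1924 and 1169, a ratio of 0.72. Phgdh, which catalyses the first step, had 5340 and 5320, and its 4 probe sets averaged 0.03 ± 0.13 (SD). Of the 500 neighbours in level, 3 had a higher ratio than Psat1 and 203 a higher ratio than Phgdh.

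The mitochondrial one-carbon enzymes Mthfd2 and Shmt2 were both above 0. Mthfd2 had signals of 2947 and 2008, a ratio of 0.55 with 0.78 in its second probe set. Shmt2, which takes the one-carbon unit from serine, was at 0.28, with a mean of 0.32 ± 0.30 (SD over 4 probe sets) and a spread of 0.28. Asns, asparagine synthetase, which is among the best known ATF4 targets, had signals of 4417 and 4813, a ratio of -0.12 within a spread of 0.20. Its second probe set gave -0.23. The median of the 9 measured enzymes was 0.28, with 6 above 0, and it was 0.10 over the 6 left without suffixed probe sets.

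Of the 7 measured amino acid transporters, 3 were above the spread at their level (Slc1a4, Slc7a1 and Slc7a5). Below minus the spread was 1, Slc7a3. The shares of all measured genes were 19.3% and 14.3%. Slc1a4, the neutral amino acid transporter ASCT1, had signals of 445 on the Mll2 shRNA array and 237 on the control array, 1.88-fold. Its second probe set gave 0.98, and the mean of both was 0.94 ± 0.05 (SD). Slc7a1, the cationic amino acid transporter CAT1, had 3441 and 2003, a ratio of 0.78 with 0.66 in its second probe set. Slc7a3, the related transporter CAT3, was lower, with 2599 and 3618, a ratio of -0.48 against a spread of 0.23.

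The light chain Slc7a5 of the leucine transporter LAT1 was at 0.26, not far above its spread of 0.22. The heavy chain Slc3a2 was at -0.04, within a spread of 0.22. Slc38a2, the glutamine transporter SNAT2, had signals of 10508 and 11228 and a ratio of -0.10, with 0.00 and 0.24 in its other probe sets. Slc1a5, the glutamine transporter ASCT2, had signals of 75.1 and 68.1, close to the floor, and a ratio of 0.14. Slc7a11, the cystine-glutamate exchanger, was below the floor in both of its probe sets on both arrays, with signals of 25.0 and 28.1 in the brighter one, and no difference was detectable. The median of the 7 measured transporters was 0.14, with 4 above 0. It ran from 0.050, over 8 genes with no floor or a floor at the 30th percentile, to 0.26 with spike-in scaling, where 6 of 7 were above 0. It was 0.073 with a pseudocount and 0.21 with probe sets averaged.

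The 12 cytosolic tRNA synthetases showed small differences that mostly had 1 sign. All except Yars, 11 of the 12, had higher signals on the Mll2 shRNA array, with a median log2 ratio of 0.24. After loess, quantile normalization or averaging of probe sets 10 of the 12 did. None reached 2-fold. Cars, which charges cysteine tRNA, had the largest ratio, with signals of 777 and 474, 0.71, although its second probe set was below the floor. Aars, the alanyl enzyme, had 4486 and 3233, a ratio of 0.47 with 0.32 in its second probe set. Iars, the isoleucyl enzyme, had 8803 and 6545, a ratio of 0.43 with 0.35 in its second.

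Mars (methionyl) was at 0.34, Tars (threonyl) at 0.27, Gars (glycyl) at 0.25, Nars (asparaginyl) at 0.24 and Lars (leucyl) at 0.20. Each was above the spread at its level, which ran from 0.19 for Gars to 0.22 for Tars, but Lars only just (0.1977 against 0.1971). The second Nars probe set gave 0.38. Sars, Eprs and Wars were at 0.08, 0.07 and 0.03, within their spreads. For Eprs, which fuses the glutamyl and prolyl enzymes, and for Wars the probe sets differed in direction. Yars (tyrosyl) had signals of 660 and 727, a ratio of -0.14 within a spread of 0.31.

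The cytosolic synthetases that are not usually listed with ATF4, and the scaffold proteins of the multi-synthetase complex, lay below 0. All 10 measured genes of this list (Farsa, Farsb, Hars, Kars, Qars, Rars, Vars, Aimp1, Aimp2 and Eef1e1) had ratios below 0. Among all measured genes 53.5% had ratios above 0. Of the 10, 4 (Hars, Kars, Rars and Aimp1) lay below minus the spread at their level, against 14.3% of all measured genes. Other probe sets gave 0.02 and -0.81 for Farsa and -0.07, -0.25 and 0.02 for Farsb. Those of Hars, Qars and Aimp2 were all below 0. The list had a median of -0.22 and none at 2-fold. With spike-in scaling 9 of the 10 were below 0 (median -0.11), and without suffixed probe sets 7 of 9. The 10 ratios ran from -0.48 for Aimp1, a scaffold protein with signals of 3313 and 4621, to -0.09 for Farsa. The medians of the member synthetases and of this list were 0.47 apart. Under the 10 alternatives of scaling, floor and probe set choice they were between 0.46 and 0.52 apart. Median centring and spike-in scaling shift these ratios alike, and these genes lie above every floor used. Those alternatives could therefore not change the difference. Both lists were chosen with earlier results of these arrays known. No test of this difference was possible with 1 array per group. The 16 measured mitochondrial synthetases had 7 ratios above 0 and a median of -0.03 (0.09 with spike-in scaling and without suffixed probe sets, 0.03 with probe sets averaged). Pars2, the prolyl enzyme, was highest at 0.52 and Yars2, the tyrosyl enzyme, lowest at -0.48.

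**Figure D3:**
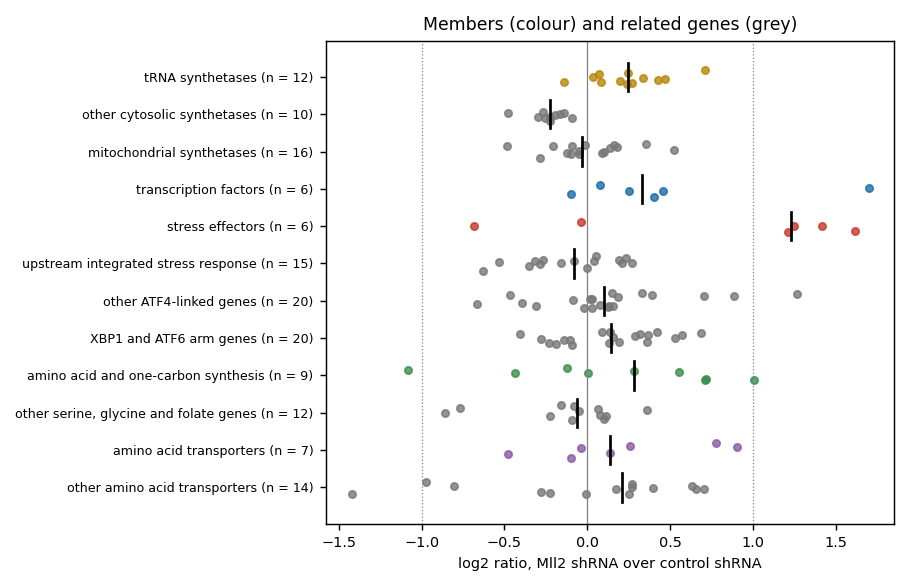
Log2 ratio (x axis) of each measured gene in the 5 role groups of members (colour) and in 7 lists of related genes (grey), with the median of each list as a black bar. The 12 member synthetases centre on 0.24 and the 10 other cytosolic synthetases and scaffold proteins on -0.22.

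The genes upstream of ATF4 had ratios on both sides of 0. Of 15 measured upstream genes, 6 were above 0 and none was 2-fold apart, and the median was -0.08, or 0.04 after spike-in scaling. The 4 eIF2 kinases all lay within their spreads, Eif2ak1 (HRI) at -0.29, Eif2ak2 (PKR) at 0.23, Eif2ak3 (PERK) at 0.05 and Eif2ak4 (GCN2) at 0.19. Other probe sets gave -1.002 and -0.07 for Eif2ak1 and 0.55 and 0.44 for Eif2ak2. Ppp1r15a, the stress-induced eIF2 phosphatase subunit GADD34, which is itself an ATF4-linked gene, had signals of 698 and 679, a ratio of 0.04. The highest ratio was that of Ppp1r15b, the constitutive phosphatase subunit, at 0.27. All 5 subunits of eIF2B, the exchange factor that phosphorylated eIF2 inhibits, were below 0. Looked up after their values were seen, they were Eif2b1 at -0.63 (signals 987 and 1526), Eif2b4 at -0.53, Eif2b3 at -0.35, Eif2b5 at -0.32 and Eif2b2 at -0.08. With spike-in scaling 4 of the 5 stayed below 0. The kinases and Ppp1r15a were also named after their values were seen.

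Other genes linked with ATF4 had a median of 0.10 over 20 measured genes, 14 of them above 0. Gpt2, the mitochondrial alanine aminotransferase, was at least 2-fold higher, with signals of 1003 and 417, a ratio of 1.27. Its other 3 probe sets gave 0.84, 0.89 and 1.01. The lowest of the list was Jmjd6 at -0.66, with 0.24 in its second probe set. Genes of the XBP1 and ATF6 arms of the unfolded protein response had a median of 0.14 over 20 genes, 13 of them above 0 and none at 2-fold. They ran from -0.40 for Manf to 0.68 for Atf6, whose other probe sets gave -0.04 and 0.09. Xbp1 itself, looked up after its value was seen, was at 0.57, with 0.66, 0.20 and 0.71 in its other probe sets. Of the 20, 7 exceeded the spread at their level and 1 lay below minus the spread, against 19.3% and 14.3% of all measured genes. The 12 measured serine, glycine and folate genes outside the members had a median of -0.06, or 0.05 after spike-in scaling, and ran from -0.86 for Tyms, near the floor and 0.59 in its second probe set, to 0.36 for Aldh1l2, a lower bound in size.

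The differences were compared across the probe sets of each member. Of the 90 member probe sets, 75 were above the floor on both arrays, and 59 of these (78.7%) had a ratio above 0, against 53.4% of 18509 named probe sets. Among 23 members with at least 2 such probe sets, all probe sets had the same sign in 16. The other 7 were Ddit3, Sesn2, Eif4ebp1, Phgdh, Slc38a2, Wars and Eprs, and except for Sesn2 their probe sets used lay within the spread at their level. The SD between the probe sets of a member had a median of 0.16 and ran from 0.04 for Cebpg to 0.60 for Sesn2. Probe sets of a gene are read on the same array and can share sequence, so they are not replicates.

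**Figure D4:**
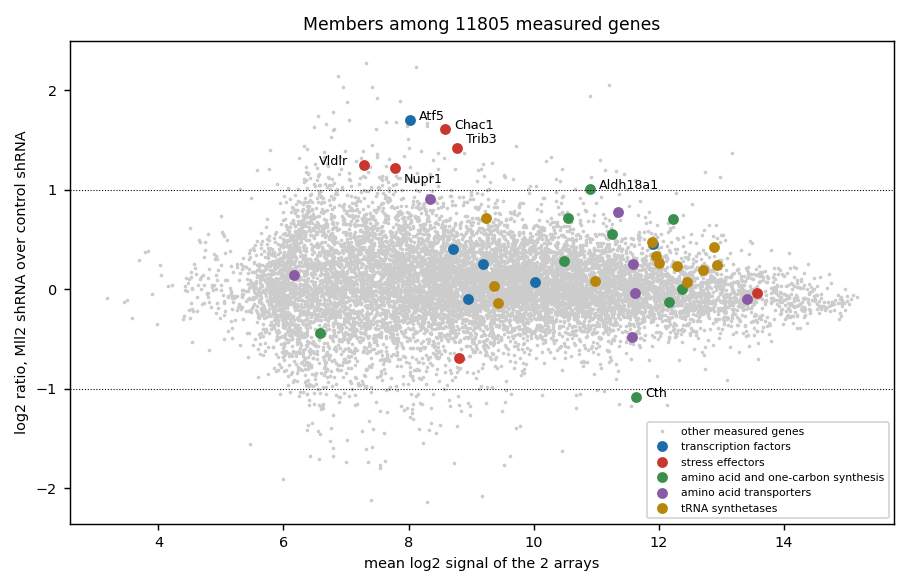
Log2 ratio (y axis) against the mean log2 signal of the 2 arrays (x axis) for 11805 measured genes (grey) and the 40 members (coloured by role), with dotted lines at 2-fold. Atf5, Chac1, Trib3, Vldlr, Nupr1 and Aldh18a1 lie on or above the upper line and Cth below the lower one.

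Promoter sequence was then examined for the C/EBP-ATF response element. The letters TGATGNAA, where N is any base, were searched on both strands in RefSeq windows of 250 bases before to 50 after each annotated start, and the narrower TGATGCAA is a subset of it. Windows were at hand for 33 of the 42 genes. The broader letters occurred in 14 of these (42.4%), against 4.51% of 27025 genes with a window and 2.57% of the 9538 measured ones. The narrower letters occurred in 11 members (33.3%), against 1.03% of all genes. The 42 genes were listed because they are known for this pathway, so the share is not independent of how they were chosen. By role, the broader letters occurred in 4 of 5 stress effectors, 5 of 8 synthetases, 2 of 5 transporters, 2 of 9 enzymes and 1 of 6 transcription factors. In the related lists they occurred in 4 of 20 other ATF4-linked genes, 1 of 13 upstream genes and 1 of 15 other amino acid transporters. They occurred in 0 of 8 other cytosolic synthetases and scaffold genes, 0 of 14 mitochondrial synthetases, 0 of 17 XBP1 and ATF6 arm genes and 0 of 13 serine, glycine and folate genes.

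The matches in 7 further measured members are given below in 30-base windows that read the element in the same orientation, so that the flanking bases can be compared. They were selected to cover each role group and both high and low ratios. Capitals mark the 8 matching letters, and strand means the strand that reads them.
Atf3, chr1:191183425-191183454, plus strand: cgcggacttggTGATGCAAgtgcgagaagg
Trib3, chr2:152344028-152344057, plus strand: ccccgcccggcTGATGTAAacctgagctaa
Slc1a4, chr11:20332699-20332728, plus strand: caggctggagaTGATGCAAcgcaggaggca
Asns, chr6:7693214-7693243, minus strand: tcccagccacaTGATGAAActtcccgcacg
Iars, chr13:49682126-49682155, minus strand: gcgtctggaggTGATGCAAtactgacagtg
Tars, chr15:11399655-11399684, plus strand: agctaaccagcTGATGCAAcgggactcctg
Yars, chr4:129189895-129189924, plus strand: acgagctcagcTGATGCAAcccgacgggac
In Atf3 the match began 110 bases before the gene start, in Asns 23, in Tars 15 and in Slc1a4 4 bases before it. In Trib3 it began 14 bases after the start, in Iars 7 and in Yars 3. Of these 7 genes, Trib3 and Asns match only the broader letters.

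The measured members with a match had somewhat higher ratios than those without, with much overlap. The 12 with a match of the broader letters had a median of 0.45 and ran from -0.14 (Yars) to 1.62 (Chac1), and 10 were above 0. The 19 with a window and no match had a median of 0.25 and ran from -0.69 (Sesn2) to 1.70 (Atf5), with 14 above 0. At least 2-fold higher were 4 of the 12 and 2 of the 19. The 4 were the stress effectors Chac1, Trib3, Nupr1 and Vldlr, so match and role were not separated. Measured members without a window, among them Cth (-1.08), Slc7a3 (-0.48) and Cars (0.71), are in neither group. Outside the members, 233 measured genes with a match had a median of 0.06 and 9274 without one had 0.02. Of the first 0.858% and of the second 1.28% were at least 2-fold higher. For the narrower letters the order was the other way, with 1.72% of 58 genes with a match (1 gene, median 0.12) and 1.27% of 9449 without (median 0.02). A match shows that these letters are present in the window and does not show that a factor binds there.

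**Figure D5:**
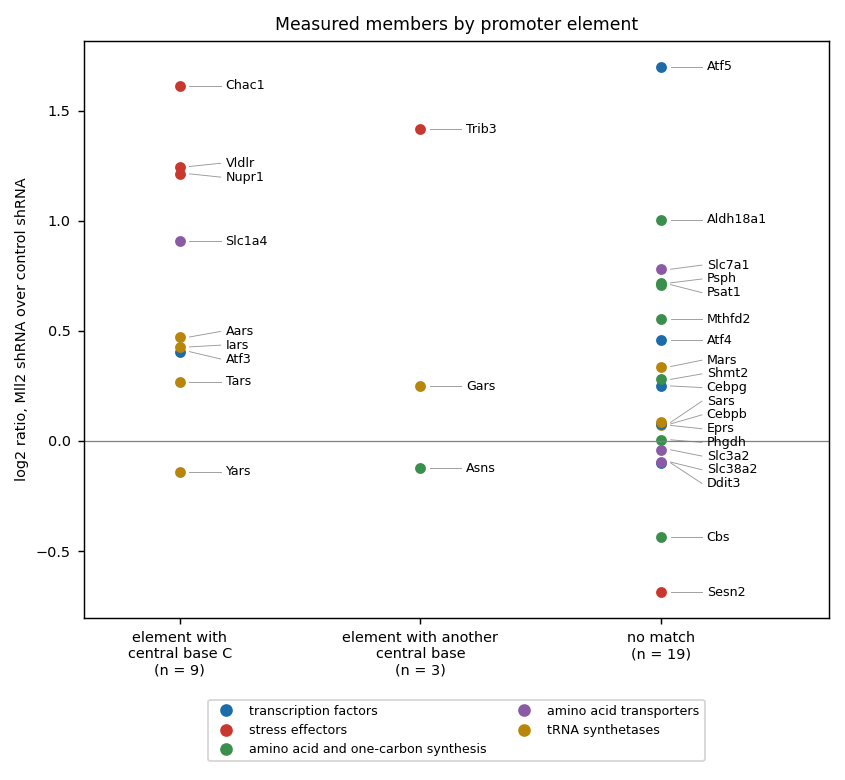
Log2 ratio (y axis) of the measured members with a promoter window, split by whether the window holds the response element with C as its central base (9 genes), with another central base (3 genes) or no match (19 genes), coloured by role. Chac1, Vldlr, Nupr1 and Slc1a4 are highest among the first, and Atf5 and Aldh18a1 are the highest without a match.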

How the data were processed

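Messenger RNA of 2 samples, 1 per group, was measured on Affymetrix 3' arrays. The deposited log2 values, for 45101 probe sets on each array, were made by the authors with MAS5, per the submitters' processing notes. Its version and any later step are not stated there. The trimmed mean signal was 500.0 on both arrays.

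Control probe sets (64) were left out. The platform annotation gave 34945 probe sets 1 symbol and 932 several (not used), and 34741 probe sets had their symbol looked up by Entrez number in RefSeq (GRCm38.p6). Floor, probe set choice and spread are as described with the results. The number of arrays limits the precision. The members and lists were chosen with earlier results of these data known. The rule gave signals for members at 2-fold, for 6 set members and for the highest and lowest of each role group. Signals of other members were added after their values were seen. The rule named other genes only at 2-fold, at the end of their list or as genes once called Mll2. Some were named beyond this rule, among them all measured genes of the other cytosolic synthetase list, Dppa5a and Xbp1. Steps were tested on simulated data with little noise and with changes past 2-fold in bright genes, so smaller differences and dimmer genes were not covered. Alternatives changed scaling (median centring, quantile, loess, spike-in controls), floor (30th and 70th percentile, none), pseudocount, probe set choice, threshold and motif. Python 3.11.15, numpy 2.4.6, pandas 2.3.3, scipy 1.17.1, matplotlib 3.10.9, R 4.3.3 and limma 3.58.1 were used.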

Additional observations from a re-analysis of the deposited data

How the results depend on the processing

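Of the 7 members at 2-fold, Chac1 and Trib3 stayed past it under every alternative of scaling, floor and probe set choice that gave them a value (10 and 9), Cth under 9 of 10, Atf5 under 8 of 9, Vldlr under 7 of 8, Nupr1 under 6 of 9 and Aldh18a1 under 5 of 10. The count of members at least 2-fold higher was 6, beside 1.47% of all measured genes. It was 3 under a floor at the 70th percentile (0.606%) or with a pseudocount equal to the floor (0.737%), and 4 with probe sets averaged (1.18%). It was 5 after loess (1.28%) or quantile normalization (1.23%), 7 with spike-in scaling (2.18%) and 1 without suffixed probe sets (1.41%, 31 members measured). At 1.5-fold it was 11 (7.4%) and at 3-fold 2. The count of lower members was 1 (0.983% of all measured genes) and 2 at 1.5-fold (4.68%). It was 0 with spike-in scaling, where 82 of 11811 measured genes were at least 2-fold lower, and 0 at 3-fold. The share of all measured genes at 3-fold was not computed, so the counts at 3-fold have nothing to be set against. Spike-in scaling adds 0.12 to every ratio between unfloored values and moved the median of all genes by 0.11. It gave medians of 0.37 for all members, 0.45 for transcription factors, 1.35 for stress effectors, 0.40 for enzymes, 0.26 for transporters and 0.36 for synthetases. In the other lists it gave -0.11 for other cytosolic synthetases, 0.086 for mitochondrial synthetases, 0.040 for upstream genes, 0.22 for other ATF4-linked genes, 0.26 for XBP1 and ATF6 arm genes, 0.054 for serine, glycine and folate genes and 0.33 for other transporters. A floor at the 70th percentile gave medians of 0.43 for stress effectors (5 genes), 0.42 for enzymes and 0.019 for other transporters. Without suffixed probe sets they were 0.022 for stress effectors, 0.10 for enzymes and 0.086 for mitochondrial synthetases. The stress effector median was 1.09 with probe sets averaged and 0.91 with the pseudocount. The median of the other transporters, 0.21 over 14 genes, was -0.20 at a floor on the 30th percentile and -0.24 with no floor, both over 20 genes, which include dim ones. The split of called genes also moved with the scaling: 59.9% of all genes at 2-fold were higher as deposited, 51.2% after quantile normalization, 52.2% after loess and 75.9% with spike-in scaling. No paired analysis was possible because each group has 1 array. Genes near the floor, such as Slc1a5 and Cbs, are limited by their low signal.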

Other observations

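Among 14 measured amino acid transporters outside the members, ratios ran from -1.42 to 0.71, with a median of 0.21. Slc1a3, the glial glutamate transporter GLAST, was lowest, with signals of 93.2 on the Mll2 shRNA array and 250 on the control array. Its other probe sets gave 0.11, -0.01 and -0.63, so they did not share this size. Slc36a4, a proton-coupled amino acid transporter, was highest, with signals of 160 and 97.9. Slc6a15, a neutral amino acid transporter, and Gldc, the glycine decarboxylase of the glycine cleavage system, were looked up after their values were seen. Slc6a15 had signals of 434 and 854, a ratio of -0.98, and Gldc had 1354 and 2305, a ratio of -0.77.

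There were 3 probe sets that name a member together with another gene, kept out of all counts. One shared by Aars and Exosc6 had a log2 difference of -0.37, opposite in sign to the 2 probe sets of Aars alone. A pair shared by Phgdh and predicted genes had differences of 0.11 and 0.04.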
